A study of Mus musculus with 16 samples.

Results

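Ucp1, Cidea, Elovl3, Otop1, Cox8b, Cox7a1, Ppargc1a and Prdm16, 8 genes that mark brown fat and its heat production, were followed in the thyroids of mice on 2 diets. They were chosen by name, as 8 of the 21640 genes in the table of counts, and each had reads in at least 1 mouse of every group. The 16 mice were male wild-type C57Bl/6J animals that began their diets at 8 weeks of age. Of these, 4 stayed on the control chow diet (CD) and 4 received high-fat chow with sucrose in the drinking water (HF+SD) for 3 weeks (3W), and another 4 and 4 did so for 6 weeks (6W). Each library holds poly(A) RNA of the whole, snap-frozen thyroid of 1 mouse, with whatever neighbouring tissue was collected with it. All libraries of a time point carry 1 library project number, so time point and library project cannot be told apart, and levels were compared between diets within a time point only. The paper gives fewer CD mice at the later time point than were deposited, without naming them, and all deposited mice were used.

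Brown adipocytes burn fat to make heat. Noradrenaline from sympathetic nerves acts on the β3-adrenergic receptor, lipid droplets release fatty acids, and uncoupling protein 1, encoded by Ucp1, lets protons back across the inner mitochondrial membrane so that the respiratory chain runs without making ATP. Thyroid hormone, made active inside these cells by the deiodinase encoded by Dio2, adds to the response, and pads of brown fat lie in the neck of mice.

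Libraries held 30025256 to 48508653 counts. Levels are given as CPM, the counts of a gene scaled to a library size that was corrected by TMM (a trimmed mean over genes), and the diets were compared with the quasi-likelihood test of edgeR. A gene was called where its adjusted p was under 0.05 and its log2 fold change above 1 or below -1. Thyroglobulin, Tg, the defining product of thyrocytes, was abundant in each group, at 278800 CPM on the CD and 285900 CPM on the HF+SD at 3W, and 77040 and 105100 CPM at 6W. The CD libraries of 6W differed in skeletal muscle transcripts. A list of 36 muscle genes took 0.117% of the counts in mouse M22, but 4.05% in M43, 12.4% in M48 and 17.2% in M45, against shares from 0.144% to 0.484% in the HF+SD mice of 6W and from 0.013% to 0.0262% in all mice of 3W.

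Of the 8 genes, 5 fell on the HF+SD at each time point. At 3W, Ucp1, Cidea, Elovl3, Otop1 and Cox8b were called lower, where 1.4% of the 17238 tested genes were. None was called higher by edgeR or DESeq2, a call that 3.25% of genes received in edgeR. None was higher at an unadjusted p under 0.05 in edgeR, but Ppargc1a came close (0.78, unadjusted p = 0.0501, edgeR). At 6W, Ucp1, Cidea, Otop1, Cox8b and Cox7a1 were called lower of the 7 genes with enough counts to be tested, and 6.01% of the 18249 tested genes received that call. None of the 7 was called higher by edgeR or DESeq2, or higher at an unadjusted p under 0.05 in edgeR, where 6.64% of genes were called higher. The median log2 fold change of the members tested was -1.57 at 3W and -2.68 at 6W, beside -0.01 over all tested genes at both times. In whole tissue, fewer cells of a type and less RNA per cell cannot be told apart.

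**Figure D1:**
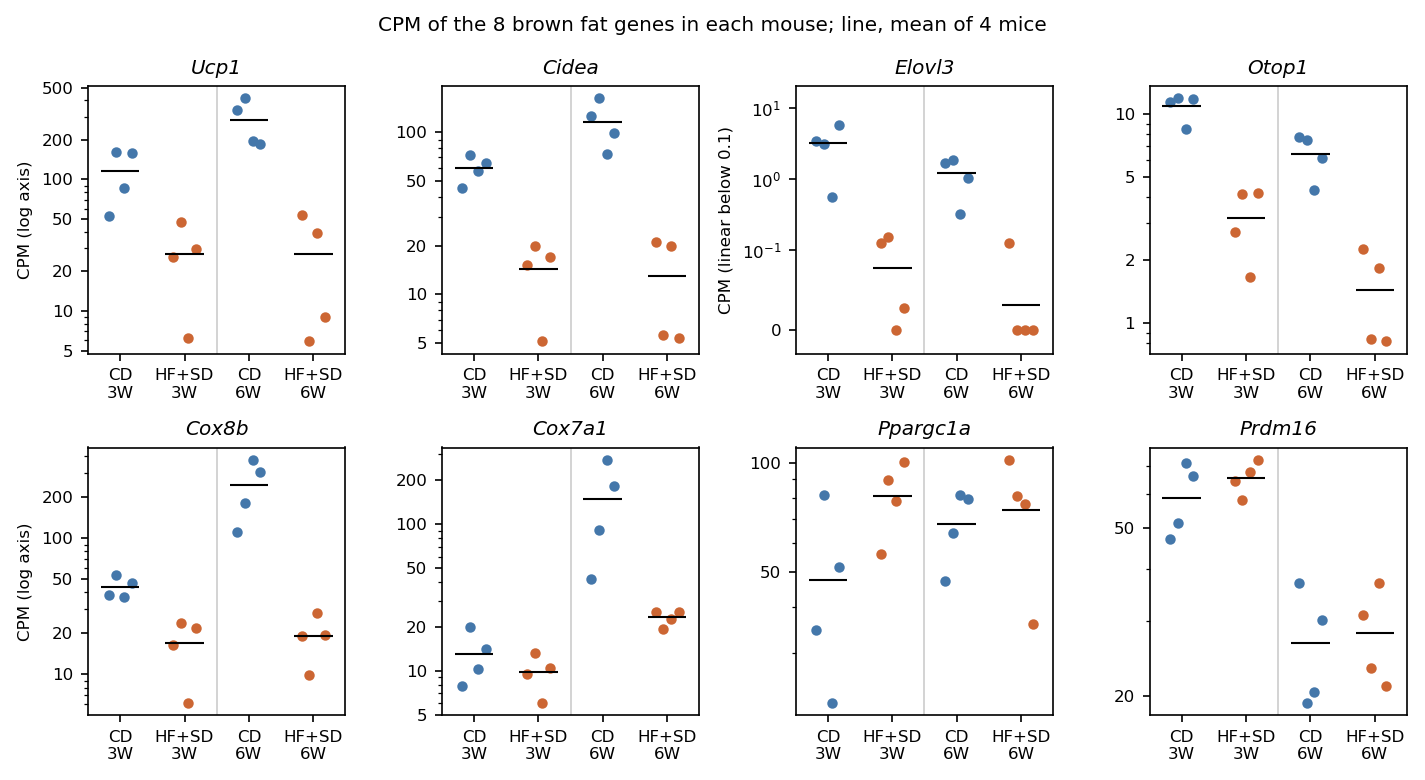
CPM of the 8 genes in each mouse (points, vertical axis on a log scale, for Elovl3 linear below 0.1) for the CD in blue and the HF+SD in orange at 3W and 6W, with the mean of 4 mice as a line. For Ucp1, Cidea, Elovl3, Otop1 and Cox8b every CD mouse lies above every HF+SD mouse of its time point, for Cox7a1 this is so at 6W, and for Ppargc1a and Prdm16 the diets overlap.

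Ucp1 (ENSMUSG00000031710.5) is the gene that defines the brown adipocyte, since its product makes the heat. At 3W its level was 52.6, 163, 86.4 and 159 CPM in the CD mice M53, M54, M55 and M96, and 29.5, 25.6, 47.5 and 6.19 CPM in the HF+SD mice M7, M19y, M20y and M31. All CD mice were above all HF+SD mice, although M53 on the CD and M20y on the HF+SD lay close together. The mean fell from 115 ± 54.6 to 27.2 ± 17 CPM (SD, n = 4 per diet), with a log2 fold change of -2.09 (SE 0.55, adjusted p = 0.0309, edgeR) or 4.24-fold lower. At 6W it stood at 339 CPM in M22, 416 in M43, 187 in M48 and 195 in M45 on the CD, and at 8.99 CPM in M5, 54.1 in M18, 5.87 in M34 and 39.5 in M35 on the HF+SD. The diets again did not overlap. Among HF+SD mice, however, M18 and M35 kept several times the level of M5 and M34. The mean went from 284 ± 112 to 27.1 ± 23.5 CPM, a log2 fold change of -3.39 (SE 0.70, adjusted p = 0.0111, edgeR) or 10.5-fold lower. An exact two-sided permutation test of log2 CPM gave p = 0.0286 at each time, the smallest value that 4 mice against 4 allow. The call at 3W was the less firm, since leaving out M54, M96, M7 or M19y raised the adjusted p to between 0.0563 and 0.082, with log2 fold changes of -2.13 to -1.88.

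The windows of 3 start sites are printed, of the gene that makes the heat (Ucp1), of a respiratory subunit that fell with it (Cox8b) and of a coactivator that was not called (Ppargc1a). Each is the 250 bases before the RefSeq start site in GRCm38.p6, written 5′ to 3′ on the strand of the gene, with capitals for any of the short motifs searched.
Ucp1: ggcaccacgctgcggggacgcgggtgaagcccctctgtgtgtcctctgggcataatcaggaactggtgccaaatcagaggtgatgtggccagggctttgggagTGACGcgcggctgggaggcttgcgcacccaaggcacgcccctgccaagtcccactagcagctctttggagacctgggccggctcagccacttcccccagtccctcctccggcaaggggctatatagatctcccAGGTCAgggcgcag
Cox8b: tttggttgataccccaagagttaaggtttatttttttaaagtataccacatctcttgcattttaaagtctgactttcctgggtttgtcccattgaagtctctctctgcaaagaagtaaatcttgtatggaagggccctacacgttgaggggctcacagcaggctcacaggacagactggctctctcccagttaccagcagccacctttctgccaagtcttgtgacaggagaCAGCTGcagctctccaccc
Ppargc1a: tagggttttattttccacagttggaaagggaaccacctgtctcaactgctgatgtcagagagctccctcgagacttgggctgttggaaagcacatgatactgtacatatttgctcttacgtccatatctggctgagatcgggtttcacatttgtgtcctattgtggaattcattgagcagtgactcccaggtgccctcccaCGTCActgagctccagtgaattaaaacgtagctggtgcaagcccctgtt
They span chr8:83290098-83290347 on the plus strand, chr7:140900447-140900696 on the minus strand and chr5:51567726-51567975 on the minus strand. Both strands of the window were searched for 8 motifs. These were the TATA box TATAAA (in 12.4% of 32851 windows of this length), the nuclear receptor motif AGGTCA (14%), the longer AAGGTCA that contains it (4.1%), the cyclic AMP response element TGACGTCA (1.5%) and its core TGACG that lies within it (17.8%), the CCAAT box (CCAAT, 33.8%), the GC box GGGCGG (32.7%) and the E-box CAGCTG (13%). Ucp1 held TGACG at -147 and AGGTCA at -14 relative to the start site, Cox8b held CAGCTG at -19, and Ppargc1a held TGACG on the minus strand at -49. GC content was 64.8% for Ucp1, 47.2% for Cox8b and 48% for Ppargc1a, beside a median of 52.4% over all windows. Windows were matched for 6 of the 8 genes. Of the others, Otop1 (70.0% GC) held GGGCGG at -11, Cox7a1 held CCAAT on the minus strand at -137 and -74, and Prdm16 held GGGCGG at -220 and CCAAT at -98. These matches describe letters in the window and say nothing of binding in these mice.

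Cidea (ENSMUSG00000024526.10) encodes a lipid droplet protein that is abundant in brown fat. At 3W it stood at 45, 72.3, 57.5 and 64.4 CPM in the CD mice (in the order M53, M54, M55, M96) and at 17.1, 15.2, 19.8 and 5.13 CPM in the HF+SD mice (M7, M19y, M20y, M31). The groups were well apart, and M31 was the lowest mouse for Cidea as for Ucp1. The log2 fold change was -2.07 (SE 0.34, adjusted p = 0.00427, edgeR), or 4.19-fold lower. The levels of 6W were 125, 162, 73.6 and 99.1 CPM on the CD (M22, M43, M45, M48) and, in the HF+SD mice, 5.40, 20.9, 5.58 and 19.8 CPM (M5, M18, M34, M35). The same HF+SD pairs appeared as for Ucp1, with M18 and M35 above M5 and M34. The log2 fold change was -3.15 (SE 0.51, adjusted p = 0.00357, edgeR), or 8.88-fold lower. Of its family, Cidec, which builds large droplets in white fat, was called lower by smaller amounts (-1.0 at 3W, adjusted p = 0.013, and -1.05 at 6W, adjusted p = 0.0378), while Cideb, the form of liver and gut, had log2 fold changes of 0.65 and 0.50 and was not called.

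Elovl3 (ENSMUSG00000038754.6), an elongase of very long fatty acids that cold induces in brown fat, was the scarcest member and had the lowest log2 fold change of all 17238 genes tested at 3W. The CD mice had 3.36, 3.13, 0.566 and 5.68 CPM (M53, M54, M55, M96), and the HF+SD mice had 0.0269, 0.128, 0.155 and 0 CPM (M7, M19y, M20y, M31). M55 was the low mouse on the CD, yet it stayed above each HF+SD mouse. The sums were 509 and 12 counts, a ratio of 44.3 (95% exact interval 25.2 to 86.4, counting error only), and the log2 fold change was -5.36 (SE 0.84, adjusted p = 0.00322, edgeR). At 6W, 59, 81, 10 and 36 reads were counted in M22, M43, M45 and M48 on the CD, against 0, 4, 0 and 0 in M5, M18, M34 and M35 on the HF+SD. This is too few for the filter on low counts, so Elovl3 had no edgeR value at 6W, but the groups did not overlap (difference of mean log2 CPM -3.85, exact permutation test, two-sided p = 0.0286) and the sums of 186 and 4 counts gave a ratio of 39.8 (15.3 to 148). Without that filter edgeR gave -5.25 (adjusted p = 0.00627). Relatives of Elovl3 moved differently. At 6W, Elovl2 (1.63, adjusted p = 0.00458) and Elovl7 (1.13, adjusted p = 0.0169) rose and Elovl4 (-1.33, adjusted p = 0.013) fell on the log2 scale, and none of the other 6 members of the family was called at 3W.

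Otop1 (ENSMUSG00000051596.16), a proton channel best known from sour taste and the inner ear and also found in brown fat, had narrow groups. At 3W the CD mice had 11.4, 11.9, 8.46 and 11.8 CPM (M53, M54, M55, M96) and the HF+SD mice had 4.19, 2.71, 4.13 and 1.67 CPM (M7, M19y, M20y, M31). At 6W the levels were 7.77, 7.48, 4.32 and 6.16 CPM on the CD (M22, M43, M45, M48) and 0.817, 2.26, 0.843 and 1.83 CPM on the HF+SD (M5, M18, M34, M35). Neither time point showed an overlap, and within the HF+SD mice of 6W the order was once more M18 and M35 above M5 and M34. The log2 fold changes were -1.78 (SE 0.27, adjusted p = 0.00271, edgeR) at 3W and -2.17 (SE 0.37, adjusted p = 0.0045, edgeR) at 6W, that is 3.44-fold and 4.49-fold lower. No single mouse decided either call, as leaving out each in turn kept the adjusted p between 0.00155 and 0.0161.

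**Figure D2:**
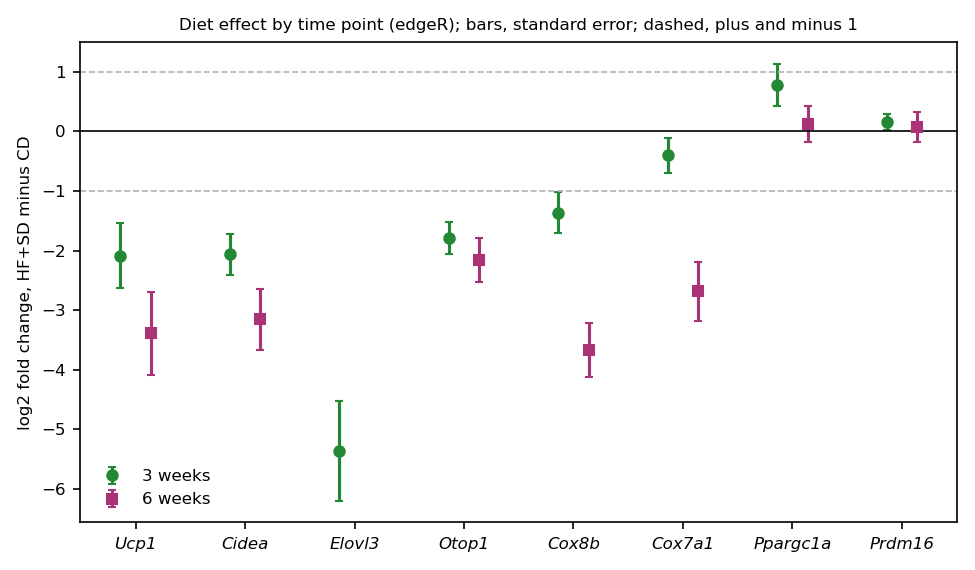
Log2 fold change of HF+SD over CD for the 8 genes at 3W (circles) and 6W (squares) from edgeR, with the standard error as bars and dashed lines at the minimum for a call. In all, 6 genes reach below the lower line at 1 time point or both, Elovl3 has no value at 6W because it was not tested there, and Ppargc1a and Prdm16 lie between the dashed lines at both times.

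Cox8b (ENSMUSG00000025488.10) and Cox7a1 (ENSMUSG00000074218.4) encode the forms of 2 small cytochrome c oxidase subunits that heart, skeletal muscle and brown fat use in place of the widespread Cox8a and Cox7a2. Cox8b fell at both times. At 3W it was at 38.6, 53.6, 36.9 and 47 CPM in the CD mice (M53, M54, M55, M96) and at 21.9, 16.4, 24 and 6.17 CPM in the HF+SD mice (M7, M19y, M20y, M31), with no overlap, a log2 fold change of -1.37 (SE 0.34, adjusted p = 0.0256, edgeR). At 6W it was at 112, 181, 379 and 308 CPM on the CD (M22, M43, M45, M48) and at 19.6, 19, 9.94 and 28.3 CPM on the HF+SD (M5, M18, M34, M35). The log2 fold change was -3.67 (SE 0.45, adjusted p = 0.000903, edgeR), or 12.7-fold lower. Among CD mice of 6W its level followed the order of the muscle share, lowest in M22 and highest in M45, whereas Ucp1 and Cidea were highest in M43 and M22 and lowest in M48 and M45. The call at 3W was lost without M96 (adjusted p = 0.0555) or M19y (adjusted p = 0.0689).

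Cox7a1 was called at 6W alone. At 3W its levels were 7.79, 19.7, 10.3 and 14 CPM in the CD mice (M53, M54, M55, M96) and 10.5, 9.54, 13.2 and 6.02 CPM in the HF+SD mice (M7, M19y, M20y, M31). The groups overlapped, and the log2 fold change of -0.40 (SE 0.30, adjusted p = 0.395, edgeR) did not pass. At 6W its levels were 42.2, 91.2, 276 and 183 CPM on the CD (M22, M43, M45, M48) and 25.2, 25.2, 19.2 and 22.6 CPM on the HF+SD (M5, M18, M34, M35). Every CD mouse was higher, the HF+SD mice were close together, and the CD mice again stood in the order of their muscle shares. The log2 fold change was -2.68 (SE 0.50, adjusted p = 0.00671, edgeR), or 6.42-fold lower. With only M22 left on the CD, the mouse with a muscle share in the range of the HF+SD mice or below it, the value shrank to -0.88 (adjusted p = 0.0463) and missed the minimum fold, the lone mouse being assumed to vary like the others. With a muscle score as a covariate it was -1.19 (adjusted p = 0.0156). By the same M22-only fit Cox8b remained called at -2.56 (adjusted p = 0.017), Cidea at -3.28 (adjusted p = 0.0337) and Otop1 at -2.45 (adjusted p = 0.0374), Elovl3 was tested and called at -5.72 (adjusted p = 0.0252), and Ucp1 had -3.66 (adjusted p = 0.0626).

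The share of the muscle and brown fat form in each pair, per length, was lower on the HF+SD at both times for Cox8b and at 6W for Cox7a1. Cox8b made up 29.4 ± 3.99% of Cox8b plus Cox8a in CPM per kb of exon on the CD at 3W and 11.7 ± 4.95% on the HF+SD (SD, n = 4 each), and the mice did not overlap (exact permutation test, two-sided p = 0.0286). At 6W the share was 35.7% in M22, 48% in M43, 68.2% in M48 and 75% in M45 on the CD, whereas the HF+SD mice had 4.29% to 11.5% (exact permutation p = 0.0286). For Cox7a1 over Cox7a1 plus Cox7a2 the share was 17.3 ± 5.57% and 11.8 ± 2.52% at 3W, which overlapped (exact permutation p = 0.2), and 44.7 ± 18.4% and 13.4 ± 1.47% at 6W, which did not (exact permutation p = 0.0286). The partners were not called, with log2 fold changes of 0.25 and 0.43 for Cox8a and of 0.24 and -0.02 for Cox7a2 at 3W and 6W. Cox6a2, another muscle form and itself in the muscle list, was at 0.999 and 0.663 CPM at 3W and fell at 6W from 350 to 9.79 CPM (log2 fold change -5.16, adjusted p = 0.0186). Of the 11 tissue isoforms of the complex, 1 was lower and none higher at 3W, beside 1.4% and 3.25% of all tested genes. At 6W, 3 were lower and 1, Cox4i2, higher (1.20, adjusted p = 0.00233), beside 6.01% and 6.64%. The 5 other subunits tested, Cox5a, Cox5b, Cox6c, Cox7b and Cox7c, were not called at either time, with log2 fold changes of 0.04 to 0.29 at 3W and -0.86 to -0.28 at 6W.

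**Figure D3:**
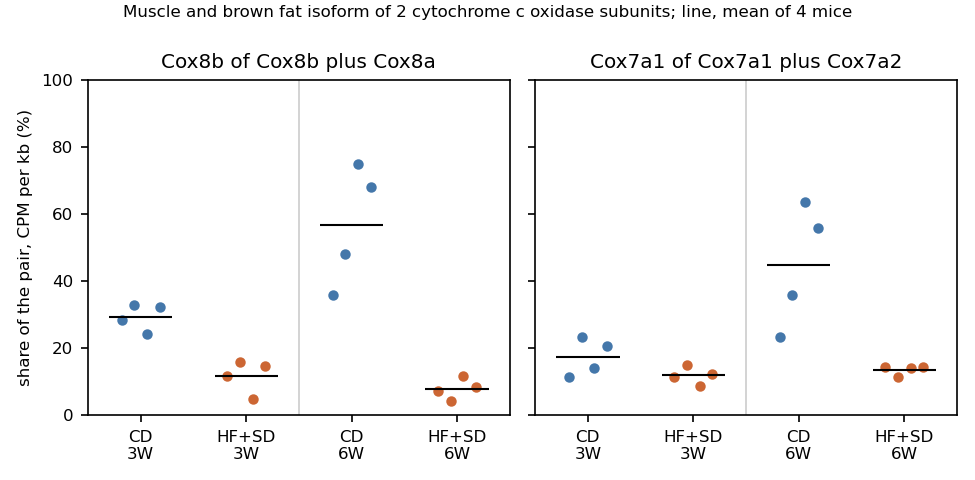
Share of Cox8b in Cox8b plus Cox8a and of Cox7a1 in Cox7a1 plus Cox7a2, in percent of CPM per kb of exon, in each mouse (points) with the mean of 4 mice as a line, for the CD in blue and the HF+SD in orange. The CD mice of 6W reach from 35.7% to 75% for Cox8b and stay above the HF+SD mice, and the Cox7a1 shares of 3W overlap.

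Ppargc1a and Prdm16, the regulators of the program, were not called at either time. Which cells of the tissue their reads came from was not tested. Ppargc1a (ENSMUSG00000029167.14) encodes PGC-1α, the coactivator that switches on mitochondrial genes and Ucp1 in the cold. At 3W it was at 34.7, 81.4, 21.8 and 51.8 CPM in the CD mice (M53, M54, M55, M96) and at 101, 56.2, 89.6 and 78.7 CPM in the HF+SD mice (M7, M19y, M20y, M31). The groups overlapped through M54, with a log2 fold change of 0.78 (SE 0.35, adjusted p = 0.162, edgeR). Without M54 it was called higher at 1.17 (adjusted p = 0.0292). Levels of 6W were 47.2, 63.9, 81.4 and 79.2 CPM on the CD (M22, M43, M45, M48) and 35.9, 102, 81.2 and 76.9 CPM on the HF+SD (M5, M18, M34, M35), a difference of 0.12 (SE 0.30, adjusted p = 0.802, edgeR). Prdm16 (ENSMUSG00000039410.17), which steers precursors to the brown adipocyte fate, ranged from 47 to 71.2 CPM on the CD and from 58.1 to 72.4 CPM on the HF+SD at 3W, and from 19.3 to 37 and 21.1 to 37 CPM at 6W. Its log2 fold changes were 0.16 (SE 0.14, adjusted p = 0.47, edgeR) and 0.08 (SE 0.26, adjusted p = 0.859, edgeR). The sign of these small values depended on the scaling. With the libraries scaled to thyrocyte genes, which moved the median of all genes to -0.61 at 3W and -1.17 at 6W, Prdm16 had -0.45 and -1.06 and Ppargc1a had 0.23 and -1.12. That shift lowers every gene, and at 6W both passed the thresholds for a lower call under it (adjusted p = 0.00259 and 0.0173).

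In order of level per length on the CD at 6W, Cox8b came first with 680 ± 335 CPM per kb, followed by Cox7a1 with 277 ± 193, Ucp1 with 174 ± 68.5, Cidea with 103 ± 33.8, Ppargc1a with 10.3 ± 2.41, Prdm16 with 2.87 ± 0.903, Otop1 with 1.87 ± 0.458 and Elovl3 with 0.619 ± 0.353 (SD, n = 4). At 3W on the CD, Cox8b (122 ± 21.6 CPM per kb) was followed by Ucp1 (70.5 ± 33.4), Cidea (53.6 ± 10.4) and Cox7a1 (24.2 ± 9.72). In this order Ucp1 and Cidea differed at 3W by less than the larger of their SDs, as did Cox7a1 and Ucp1 at 6W. The place of Cox7a1 at 6W differed between mice with their muscle shares. In M22 it had 78.9 CPM per kb, below Ucp1 (207) and Cidea (112), and in M43 it had 170 beside 254 for Ucp1, whereas in M45 and M48 it had 516 and 342, above both. Cox8b was first in each of the 4 mice. On the HF+SD at 6W, Cox8b (53.4 ± 20.9) and Cox7a1 (43.1 ± 5.33) led, and Ucp1 (16.6 ± 14.4), Cidea (11.6 ± 7.72) and Ppargc1a (11.2 ± 4.2) differed from each other by less than the SD of Ucp1.

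An interaction fit of all 16 libraries, in which the library project cancels, asked whether the diet effect changed from 3W to 6W. None of the 8 genes passed in edgeR, where 0.0792% of 18929 genes did at an adjusted p under 0.05 with no minimum on the fold. Cox8b (-2.37, SE 0.59, adjusted p = 0.0616) and Cox7a1 (-2.35, SE 0.62, adjusted p = 0.0634) were the 2 members at an unadjusted p under 0.05, and these 2 were called by DESeq2 (adjusted p = 0.00271 and 0.00474). Given the muscle score as covariate, their interactions were -1.27 (adjusted p = 0.466) and -0.66 (adjusted p = 0.674). For Ucp1 the interaction was -1.34 (SE 0.91, adjusted p = 0.41) and for Cidea -1.12 (SE 0.63, adjusted p = 0.31).

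The other genes of the brown adipocyte program moved in part. Of 24 tested genes in a list of brown adipocyte genes outside the 8, 4 were called lower and 1 higher at 3W (median log2 fold change -0.66, beside -0.01 over all genes) and 11 lower and none higher at 6W (median -1.07). Over all tested genes, 1.4% were called lower and 3.25% higher at 3W, and 6.01% and 6.64% at 6W. Adrb3, the β3-adrenergic receptor, fell at both times (-1.42, adjusted p = 0.00965, and -1.34, adjusted p = 0.00852), and so did Dio2 (-1.38, adjusted p = 0.00321, and -1.92, adjusted p = 0.00411) and Clstn3 (-1.17, adjusted p = 0.00618, and -1.98, adjusted p = 0.00323), whose brown fat isoform acts at lipid droplets. The 4 with the lowest values at 6W were Fabp3 (-3.54, adjusted p = 0.016), a fatty acid carrier, Pdk4 (-3.50, adjusted p = 0.016), which holds back glucose oxidation, the nuclear receptor Esrrg (-3.09, adjusted p = 0.00115) and the fatty acid transporter Slc27a2 (-2.84, adjusted p = 0.00766). Fabp3, Pdk4 and Esrrg are also genes of oxidative muscle. Ppargc1b, the relative of Ppargc1a, was the gene called higher at 3W (1.06, adjusted p = 0.044) and had -0.40 (adjusted p = 0.444) at 6W. Zic1, a marker of classical brown fat that was singled out after its values were seen and was not tested, had no read in any mouse of 3W, 0, 0.776, 5.10 and 2.59 CPM in M22, M43, M45 and M48 on the CD at 6W, and at most 0.0581 CPM on the HF+SD at 6W. Its level in the CD mice followed the muscle share and not Ucp1. Of 8 beige adipocyte genes, 2 were lower at 3W and 5 at 6W, beside 1.4% and 6.01% of all tested genes. They were led by the ATP receptor P2rx5 (-1.51, adjusted p = 0.0096, and -2.83, adjusted p = 0.000492) and the amino acid transporter Slc36a2 (-1.16, adjusted p = 0.00528, and -1.47, adjusted p = 0.00492).

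White adipocyte genes fell beside the brown ones. Of 22 tested, 12 were lower at 3W (median log2 fold change -1.01) and 16 at 6W (median -1.20), and none was higher. Over all tested genes, 1.4% were lower at 3W and 6.01% at 6W, and 3.25% and 6.64% were higher. Thrsp, which promotes fat synthesis, had -2.21 and -2.97, and the insulin-regulated glucose transporter Slc2a4 had -1.87 and -3.94, all called. Adipoq, the adipokine that defines the list, had -0.93 (not called) at 3W and -1.27 (adjusted p = 0.0149) at 6W. The summed level of the list at 3W ran from 3242 to 3805 CPM on the CD and from 1463 to 2353 CPM on the HF+SD, and at 6W it ran from 4264 to 11390 and from 1755 to 2482 CPM, with no overlap. Summed CPM of the 8 brown fat genes at 3W spanned 240 to 457 in CD and 172 to 257 in HF+SD mice, with overlap. At 6W the sums spanned 712 to 1029 and 117 to 255, without overlap. Ppargc1a and Prdm16, which did not fall at 3W, averaged 81.2 and 65.7 CPM in HF+SD mice, of a mean sum of 219 CPM. The mean log2 CPM of the 8 genes did not overlap at 3W (4.71 ± 0.445 for CD, 3.26 ± 0.608 for HF+SD mice, SD). Slc2a4, Car3 and Lpl of the white list are strong in muscle too, and M45 and M48 had the highest sums of it. Pparg of the white list is also in the list of PRDM16 partners. How much of the white list's signal came from brown adipocytes was not tested. Whether the fall of the brown fat genes was part of a fall of fat transcripts as a whole was not tested beyond the relative values and the covariate fit given next.

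**Figure D4:**
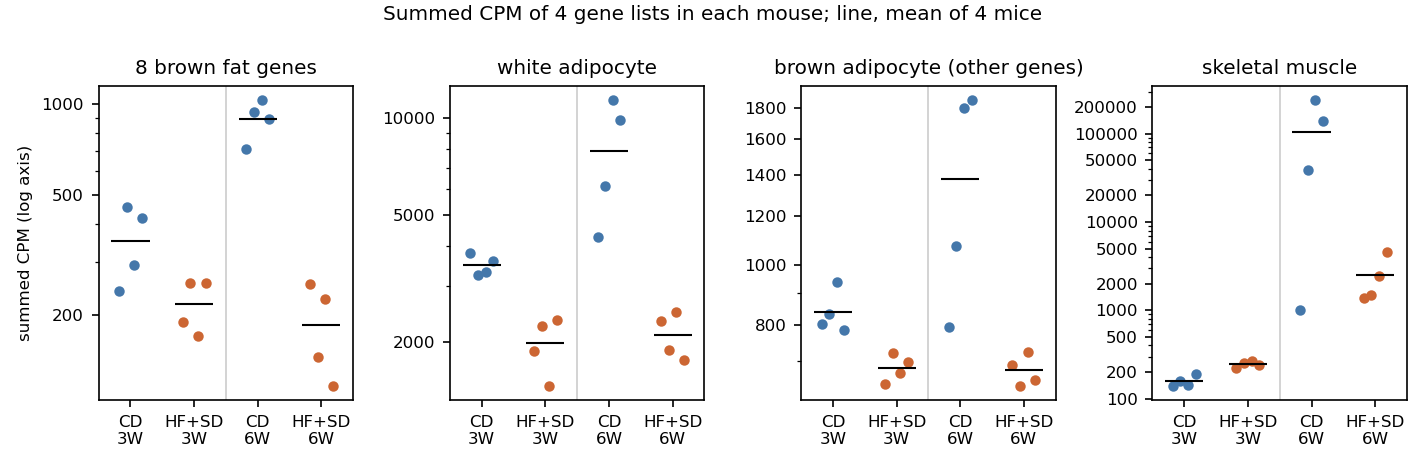
Summed CPM (log axis) of the 8 brown fat genes, the white adipocyte list, the other brown adipocyte genes and the skeletal muscle list in each mouse (points), with the mean of 4 mice as a line, for the CD in blue and the HF+SD in orange. The white adipocyte sums do not overlap between diets, and the muscle sum of the CD mice of 6W runs from 1005 CPM in M22 to 239400 CPM in M45.

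Taken relative to the white adipocyte list, as the difference of log2 CPM from the mean of that list in the same mouse, the 8 genes parted. This measure was added after the data had been seen. Cidea stayed lower on the HF+SD, by -1.19 at 3W and -1.98 at 6W, and Elovl3 by -3.50 and -2.45, with no overlap (exact permutation p = 0.0286 each). Ucp1 had -1.24 at 3W with overlap (exact permutation p = 0.114) and -2.47 at 6W without (exact permutation p = 0.0286), and Cox8b had -0.50 (exact permutation p = 0.143) and -2.22 (exact permutation p = 0.0286). Otop1 had -0.82 at 3W (exact permutation p = 0.0286) and -0.83 at 6W (exact permutation p = 0.0571). Cox7a1 was not separated at either time (0.65 and -0.97, exact permutation p = 0.143 and 0.171). For Ppargc1a (1.93 and 1.45) and Prdm16 (1.19 and 1.49) the differences were above 0. The mean of the list itself fell by 1.02 at 3W and 1.40 at 6W, so a gene with the same level on both diets comes out above 0 by those amounts, and no test is given for these 2 genes. With the white adipocyte score as a covariate in edgeR, none of the 8 was called at either time. Ucp1 then had -0.08 at 3W and -0.13 at 6W. The score, the mean log2 CPM of the list, did not overlap between diets but varied within them. At 3W it was 6.26 ± 0.12 for CD mice against 5.24 ± 0.374 for HF+SD mice (SD), and at 6W 6.60 ± 0.278 against 5.21 ± 0.353. Because score and diet were closely tied, this fit cannot fully separate the 2. Brown adipocytes may add to the white list too, so the relative values and this fit are not a correction for white fat alone.

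**Figure D5:**
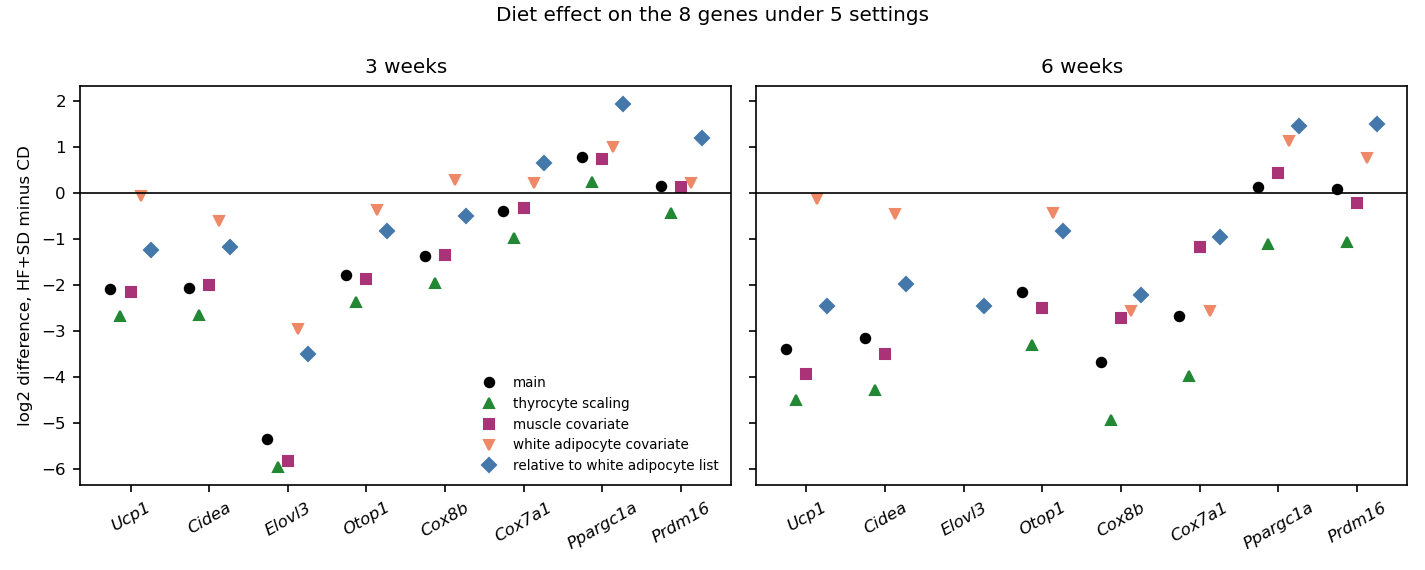
Log2 difference of HF+SD over CD for the 8 genes at 3W and 6W in the main fit, with thyrocyte scaling, with a muscle or a white adipocyte score as a covariate, and relative to the white adipocyte list. Cidea and Elovl3 lie below 0 in each setting shown for them, Ucp1 comes closest to 0 with the white adipocyte covariate, and Ppargc1a and Prdm16 change sign with the thyrocyte scaling at 6W.

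Of the 6 uncoupling proteins and near relatives, Ucp2, the widespread form of immune and many other cells, rose from 46.9 to 165 CPM at 6W (1.81, adjusted p = 0.000325) and from 135 to 250 CPM at 3W (0.89, adjusted p = 0.000274, short of the minimum fold), opposite to Ucp1. Ucp3, the muscle and brown fat form, had -0.58 (adjusted p = 0.0601) at 3W and fell by 2.48 on the log2 scale at 6W (adjusted p = 0.0175), with muscle transcripts moving beside it. Slc25a27, Slc25a14 and Slc25a30 were not called (-0.21 to 0.49 over both times). Among 12 genes of the PGC-1 coactivators and their partners, 1 was lower and 1 higher at 3W (beside 1.4% and 3.25% of all tested genes) and 3 were lower at 6W (beside 6.01%), where Perm1, a muscle regulator, had -4.50 (adjusted p = 0.0223) and Ppara -1.42 (adjusted p = 0.00139). Of 10 tested PRDM16 relatives and partners, Cebpb (-1.12, adjusted p = 0.00529) and Pparg (-1.25, adjusted p = 0.002) were lower at 3W and Pparg (-1.10, adjusted p = 0.00925) at 6W, and the list's median was -0.04 and -0.05. Of all tested genes, 1.4% and 6.01% were called lower at 3W and 6W.

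Of 16 genes of β-adrenergic signalling, the signal that drives brown fat, 2 were lower at 3W, where 1.4% of all tested genes were. At 6W, 3 were lower, beside 6.01% of all tested genes, and 1 was higher, beside 6.64%. Besides Adrb3 these were Pde3b, the phosphodiesterase through which insulin restrains lipolysis (-1.12, adjusted p = 0.00277, and -1.06, adjusted p = 0.00189), Gnas at 6W (-1.20, adjusted p = 0.0116) and Adcy4 at 6W, which rose (1.66, adjusted p = 0.00536). Of 5 sympathetic nerve genes, Th and Dbh were not among the counted genes. The noradrenaline transporter Slc6a2 was higher (2.81, adjusted p = 0.0176, and 2.30, adjusted p = 0.0231) with group means of 0.117 to 1.49 CPM. Npy was lower (-1.03, adjusted p = 0.0411, and -2.20, adjusted p = 0.000268). Of all tested genes, 3.25% and 6.64% were higher and 1.4% and 6.01% lower at 3W and 6W. Slc18a2 was tested at 6W alone (0.11, adjusted p = 0.889). Among 12 genes of heat-making cycles that do not need UCP1, Ckb, a creatine kinase, rose from 20.4 to 145 CPM at 3W (2.84, adjusted p = 1.05e-05) and from 20.4 to 196 CPM at 6W (3.27, adjusted p = 4.89e-05). Ckmt2, Atp2a1 and Ryr1 fell at 6W (-4.98, -5.27 and -5.66), all of them muscle genes, and none of these 3 was called at 3W.

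Markers of other tissues were counted in the same way. For comparison, 1.4% of all tested genes were lower and 3.25% higher at 3W, and 6.01% and 6.64% at 6W. A count of 1 gene in these short lists cannot be told from those shares, and the counts were not tested against them. The muscle list had 33 of 35 tested genes lower at 6W (median log2 fold change -5.46) and 1 higher of 25 at 3W. Thyrocyte genes were higher for 4 of 14 at 3W and 7 of 14 at 6W, and the 9 thyrocyte genes of the scaling for 1 and 4. Parathyroid genes were higher for 1 of 6 at 3W and lower for 2 of 6 at 6W, and C cell genes for 0 of 6 and, as lower, 1 of 6. The parathyroid list shares genes with the muscle, beige and C cell lists. Its 1 gene called at 3W is the same as that of the muscle list. Cardiac muscle had 2 higher of 3 and of 4, cartilage 0 of 5 and 1 higher of 4, and thymus 0 of 2 at both times. The summed level of the thymus list was 38.3 CPM in M7, an HF+SD mouse of 3W, against 0.694 to 1.45 CPM in the other mice of 3W. Without M7, Cidea, Elovl3, Otop1 and Cox8b were called lower at 3W and Ucp1 had -2.13 (adjusted p = 0.0718, edgeR). At 6W the parathyroid sum ran from 6893 to 16970 CPM on the CD and from 667 to 2897 CPM on the HF+SD, and the C cell sum from 5923 to 11060 and from 4005 to 4882 CPM, so neither overlapped, and their part in the 6W results was not tested. The part of the muscle transcripts in the 6W values of Cox8b, Cox7a1 and Ucp3 was not tested beyond the fits given.

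After each group's mean was subtracted, the 8 genes differed in how closely they varied together from mouse to mouse. Over the 16 libraries and 17023 genes tested at both times, the gene most like Ucp1 was Cidea (Pearson r = 0.962), followed by A530053G22Rik (0.937) and Cpn2 (0.902). For Cidea they were Ucp1, A530053G22Rik (0.944) and Otop1 (0.927), and for Otop1 they were Cidea, Clstn3 (0.919) and Cpn2 (0.910). Cox7a1 was most like Coq8a (0.972), Apool (0.938) and Ndufb6 (0.930), genes of mitochondrial respiration or structure, and Cox8b most like Cth (0.906), Ndn (0.906) and Romo1 (0.884). Between members, Cox8b and Cox7a1 had r = 0.804, while Ucp1 and Cox7a1 had r = 0.199. Other pairs lay between these, such as Elovl3 with Otop1 (0.650) or Ucp1 (0.557), and Ucp1 with Cox8b (0.525). Ucp1 had r = 0.352 with Ppargc1a and 0.332 with Prdm16. The lowest pair was Cox7a1 with Prdm16 (-0.322). Ppargc1a was most like the unnamed gene ENSMUSG00000120176.1 (0.947), Fam214a (0.942) and Zfp438 (0.935), and Prdm16 like Lpcat3 (0.924), Mtch1 (0.913) and Polr2a (0.906). For Elovl3 the leading genes were Fbxo7 (0.862), Grcc10 (0.857) and Cdc42ep5 (0.857), on counts near 0 on the HF+SD. These correlations are descriptions only. The libraries differed in depth and muscle share, and dissection may have differed too. Within the CD group of 6W the muscle share ran from 0.117% to 17.2%, a spread that subtracting group means does not remove.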

How the data were processed

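Thyroid RNA of 16 mice was analysed, grouped by diet and week as labelled. The authors deposited raw counts of reads per gene for 21640 genes and a normalized signal, the counts divided by 1 size factor per library. Per the submitters' processing notes, Trim Galore 0.6.7, STAR, DESeq2 1.36.0 and R 4.1.0 were used with the build mm39. The counting tool and annotation were not given in the sources used here. No gene coordinates are printed outside the RefSeq windows of GRCm38.p6, which differ in build. Names came from GENCODE M21 by identifier (20841 matched, 799 not), as did exon lengths.

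The deposited counts were tested with edgeR 4.0.16 in R 4.3.3 (TMM factors, filterByExpr by group, glmQLFit, glmQLFTest, Benjamini-Hochberg over all tested genes) within each time point. The SE is the log2 fold change divided by the square root of F. Log2 CPM used a prior count of 2. The exact permutation test was two-sided. In simulated counts with 200 genes changed 4-fold, edgeR recovered 95.5% of them at 3W (17253 genes tested, 4 false calls) and 88% at 6W (18355 genes tested, 7 false calls). Each gene was drawn independently with the dispersions that edgeR estimated, and the changed genes were taken from those passing the filter. The simulation holds no differences in tissue content between mice, so it does not measure false calls from them. Mice of a group differed by 15.1 to 871 chi-square units per gene, far beyond counting error. Intervals cover counting error only.

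The members and gene lists (other brown, beige and white adipocyte, families of the members, β-adrenergic, sympathetic, heat cycles, and markers of thyrocyte, muscle, heart, parathyroid, C cell, cartilage and thymus) were chosen with earlier results of these data known, so they are not independent evidence. Named were all members, genes of the lists that were called (at most 4 per list and time, with all of short families), paired isoforms, and the 3 genes most like each member. Tg, Adipoq and Zic1 were named beside this rule, and markers of other tissues by counts only.

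Alternatives were DESeq2 1.42.0, other size factors, other count filters, no minimum fold, 1 fit of all libraries, limma 3.58.1 on log2 of the deposited signal plus 1, scaling to 9 thyrocyte genes, muscle or white adipocyte scores (mean log2 CPM of a list) as covariates, muscle genes left out of library sizes, CD mice with over 1% muscle counts left out, and each mouse left out. The labels give no replicate numbers shared between groups, so no block was fitted.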

Additional observations from a re-analysis of the deposited data

Results flagged for a closer look

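In log2 CPM, 2 values stood far from the rest of their group by Dixon's gap test at the 95% level, among 32 combinations of gene and group checked, where chance alone flags about 1 in 20 groups. Elovl3 had 4 reads in HF+SD mouse M18 at 6W and none in the other 3, so its gap made up the whole range (ratio 1). With no reads in those 3 mice, any count in M18 gives this ratio, and the rate of 1 in 20 does not apply to it. Otop1 in CD mouse M55 at 3W, at 8.46 CPM, lay below the other 3 mice at 11.4 to 11.9 CPM (ratio 0.87). M55 was also the CD mouse with the lowest Elovl3, at 0.566 CPM. Without M55 the log2 fold change of Otop1 was -1.89 (adjusted p = 0.00155, edgeR).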

How the results depend on the processing

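The 5 members called lower at each time stayed 5 in number under DESeq2, other size factors, limma and muscle genes left out of library sizes. At 3W they became 4 with the strict filter, under which Elovl3 was not tested. At 3W the 5 became 3 with the muscle score, 3 in 1 fit of all libraries (Ucp1 and Cox8b lost in both) and 0 with the white adipocyte score, and 3 to 5 when mice were left out in turn, with 0 to 1 called higher. At 6W the 5 became 0 with the white adipocyte score, 4 without the CD mice above 1% muscle (Ucp1 and Cox7a1 lost, Elovl3 tested and called), 6 with no filter beyond 1 count and in 1 fit of all libraries (Elovl3 added), 7 of 7 with thyrocyte scaling, which lowers every gene, and 5 to 6 when mice were left out. In the interaction the 0 became 2 with DESeq2, 2 with thyrocyte scaling and 0 to 2 with mice left out (2 without M22 or M43).

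Genes called at 3W numbered 803 (561 higher, 242 lower) and became 2292 with thyrocyte scaling (274 higher, 2018 lower), 5 with the white adipocyte score and 2560 with no minimum fold. At 6W they numbered 2308 (1211 higher, 1097 lower) and became 11573 with thyrocyte scaling (281 higher, 11292 lower), 1410 with the muscle score (916 higher, 494 lower), 0 with the white adipocyte score, 893 without the CD mice above 1% muscle, 3927 with no minimum fold and 1468 to 3169 with mice left out (1468 without M34, 1494 without M18). Limma split 1148 higher and 655 lower. Interaction calls went from 15 to 1790 with DESeq2, 92 with its size factors, 168 with upper-quartile factors, 150 with the strict filter, 101 with limma, 4065 with thyrocyte scaling, 2 and 1 with the muscle and white scores, 0 without the CD mice above 1% muscle and 1 to 2715 with mice left out (2715 without M22, 1285 without M43).

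Signs turned in some settings, also for Cox8b at 3W, which was called lower at -1.37. At 3W these were Prdm16 with thyrocyte scaling (-0.45), Cox8b and Cox7a1 with the white score (0.28 and 0.21) and Cox7a1 relative to the white list (0.65). At 6W they were Ppargc1a and Prdm16 with thyrocyte scaling (-1.12 and -1.06), Prdm16 with the muscle score (-0.22) and without the CD mice above 1% muscle (-0.40), and with mice left out Ppargc1a (-0.064 to 0.357) and Prdm16 (-0.082 to 0.279). In the interaction they were Elovl3 with thyrocyte scaling (-0.37), the muscle score (-0.19), without the CD mice above 1% muscle (-0.40) and with mice left out (-3.08 to 0.66), Otop1 with the white score (0.045) and Prdm16 with mice left out (-0.295 to 0.074). The causes were not tested. The white score did not overlap between diets at either time.

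Depth limits Elovl3 alone. The CD group of 6W is uneven in muscle, and each group has 4 mice. No paired analysis was possible because the groups share no replicate numbers.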

Other observations

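Mouse by mouse, the HF+SD libraries of 6W fell into a higher and a lower pair for 3 genes at once. M18 and M35 had 54.1 and 39.5 CPM of Ucp1, 20.9 and 19.8 of Cidea and 2.26 and 1.83 of Otop1, and M5 and M34 had 8.99 and 5.87, 5.40 and 5.58, and 0.817 and 0.843. Their white adipocyte sums were 2324 and 2482 CPM in the first pair and 1755 and 1888 CPM in the second, and their muscle shares 0.144% and 0.264%, and 0.484% and 0.166%. At 3W, HF+SD mouse M31 had the lowest Ucp1, Cidea, Otop1, Cox8b and Cox7a1 of its group and the lowest white adipocyte sum (1463 CPM).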
